A study of Homo sapiens with 60 samples.

Results

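The genes that encode the subunits of the respiratory chain lie on 2 genomes, and their transcripts were followed through neural differentiation of SH-SY5Y cells with and without lead (Pb). Members were found by name: the 13 protein-coding genes of the mitochondrial genome (ND1 to ND6, ND4L, CYTB, COX1 to COX3, ATP6 and ATP8), and nuclear genes whose names begin as those of NADH dehydrogenase (complex I), succinate dehydrogenase (complex II), the cytochrome bc1 complex (complex III), cytochrome c oxidase (complex IV) or ATP synthase (complex V) subunits do. Of 184 names that matched, 98 reached at least 1 CPM, a read count scaled to the total of assigned reads in its library, in at least 3 libraries, among 15263 such genes of 37334 in all. These were all 13 mitochondrially encoded members and 85 nuclear ones. Of the nuclear members, 81 were subunit genes, and 4 were non-coding or pseudogene names (NDUFA6-DT, NDUFA9P1, NDUFB2-AS1 and NDUFV2-AS1), which are described apart. The 86 names that were not kept included 6 subunit genes, ATP5MGL, COX4I2, COX6A2, COX7A1, COX7B2 and COX8C, most of which are described as tissue-restricted isoforms. By complex, the nuclear subunit genes numbered 36, 4, 9, 14 and 18 for complexes I to V, and the mitochondrial ones 7, 0, 1, 3 and 2.

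SH-SY5Y is a human neuroblastoma line, labelled wild type, that can be driven towards a neuron-like state. Cells of passage 39 received Pb at 0.16, 1.26 or 10 µM, or none (0 µM), from day 5 of an 18 day protocol, with Pb renewed at each medium change. In each of the 20 groups formed by 4 doses and days 6, 9, 12, 15 and 18, there were 3 libraries, each from its own dish, 60 in all. The p-values therefore measure the spread between dishes of 1 line at 1 passage.

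Complexes I, III and IV pump protons across the inner mitochondrial membrane as electrons pass to oxygen, complex II feeds electrons in without pumping, and complex V uses the gradient to make ATP. The mitochondrial genome is transcribed as long polycistronic RNAs from both strands by its own polymerase inside the organelle. These are then cut into mRNAs, not all of which hold a single gene, whereas each nuclear subunit gene has its own promoter and its protein is imported. Subunits from both genomes are needed for complexes I, III, IV and V, and complex II is wholly nuclear. Neurons are known for their reliance on this pathway.

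Library totals ran from 16594259 to 50539599 assigned reads, so 3 reads in a library corresponded to 0.0594 to 0.181 CPM. Relative to the rest, long transcripts were low in 2 libraries, replicate 1 of day 18 without Pb and replicate 3 of day 6 with 10 µM Pb. The library names of day 18 all carry another prefix than those of the other days, so day 18 against day 6 and the prefixes cannot be told apart, whereas doses were compared within a prefix. All 10 noradrenergic markers of the line (such as CHGA and DBH) reached 1 CPM at day 6 without Pb, with a summed level of 5995 to 6124 CPM. Because the samples are bulk RNA, fewer cells of a kind and less RNA per cell cannot be told apart.

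The mitochondrial messages were abundant. Their mean levels over the 60 libraries had a median of 1022 CPM per kilobase of transcript, against 44.3 CPM per kilobase for the 81 nuclear subunit genes. COX2, a catalytic core subunit of complex IV, was highest at 3887 CPM per kilobase, followed by ND1 at 3343 and ND4 at 1888, both membrane subunits of complex I. ND6, the single member encoded on the light strand, stood at 150.5 CPM per kilobase, and ATP8, the shortest member, at 114. The 11 other mitochondrial members all lay above the highest nuclear one, ATP5F1B, the catalytic beta subunit of complex V, at 354 CPM per kilobase. Length here is that of the longest annotated transcript of each gene, such as 3946 bases for COX4I1 and 5818 for ATP5F1A. Nuclear levels per kilobase, and their order, depend on that choice and may be understated. The strand setting of the counting is not given in the sources used here, so reads of ND6 and of antisense RNA at its place could not be separated.

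Some members share bases with a neighbour, and their stretches are shown because a read inside them belongs to both genes. ATP8 (MT:8366-8572) and ATP6 (MT:8527-9207) share 46 bases, which are 22.2% of ATP8, and ND4L (MT:10470-10766) and ND4 (MT:10760-12137) share 7 bases. The shared bases are in capitals, with 20 bases on each side, on the heavy-strand-encoded sense strand of GRCh38 (MT:8507-8592 and MT:10740-10786).
ATP8 and ATP6: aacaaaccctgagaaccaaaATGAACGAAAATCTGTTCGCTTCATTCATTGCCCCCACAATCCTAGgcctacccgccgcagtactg
ND4L and ND4: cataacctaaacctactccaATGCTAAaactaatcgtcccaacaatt
Reads in the shared bases could not be told apart between the partners. In addition, the table held 375 names of nuclear pseudogene copies of mitochondrial genes, whose summed level ran from 39 to 109 CPM over the libraries, against at least 10399.6 CPM for the 13 members, and reads of such near-identical copies may be split.

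**Figure D1:**
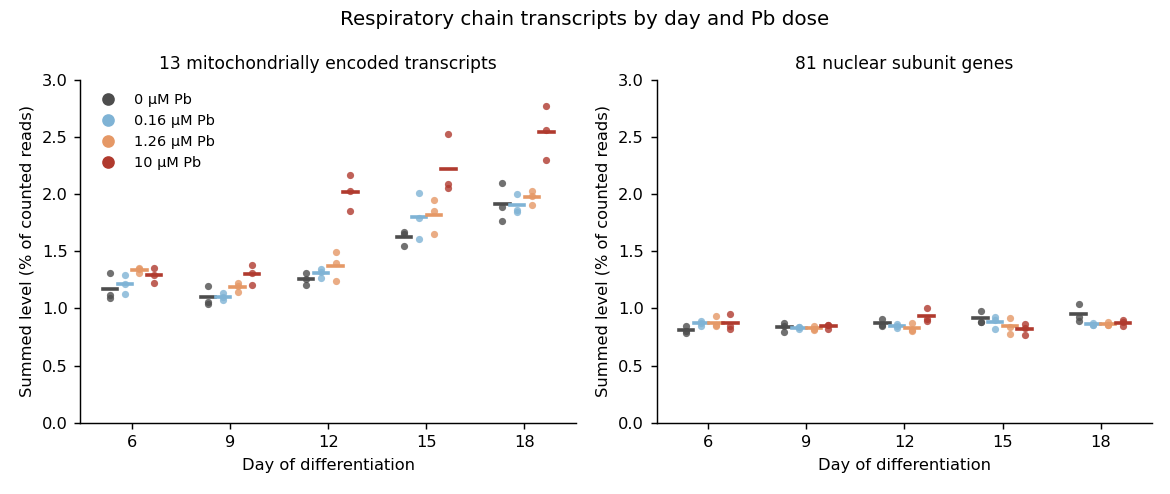
Summed level, as a percentage of counted reads, of the 13 mitochondrially encoded genes (left) and the 81 nuclear subunit genes (right), by day of differentiation and Pb dose. Points are libraries and bars are means of 3. The mitochondrial share is highest late in differentiation and at 10 µM from day 12, with means of 2.02, 2.22 and 2.55% at days 12, 15 and 18, while no nuclear library leaves the range from 0.764 to 1.04%.

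Without Pb, the mitochondrial share of reads was highest late in differentiation. At days 6, 9, 12, 15 and 18 it averaged 1.17 ± 0.119, 1.10 ± 0.0883, 1.26 ± 0.0536, 1.62 ± 0.0674 and 1.92 ± 0.168% (SD, n = 3 each). The 3 libraries of day 18 held 2.10, 1.88 and 1.77%, and those of day 6 held 1.09, 1.31 and 1.12%, without overlap. The nuclear subunit genes together took 0.951 ± 0.0761% at day 18 and 0.812 ± 0.0337% at day 6, also without overlap between libraries.

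At day 18 against day 6 without Pb, 12 of the 13 mitochondrial members rose and none fell (limma with Benjamini-Hochberg adjustment over all genes kept, adjusted p under 0.05, on the log2(CPM + 1) scale, which understates changes of low genes), with a median log2 change of 0.71. Among all genes kept, 32.1% rose and 34.7% fell, with a median of -0.03. The complex IV core subunit COX3 had 895, 836 and 650 CPM at day 18, against 296, 338 and 279 CPM at day 6. All its day 18 libraries lay above all its day 6 libraries, and its log2 change was 1.37 ± 0.10 (SE, adjusted p = 6.17e-16). CYTB, the catalytic subunit of complex III that the mitochondrion encodes, changed by 1.25 ± 0.08. For ND2, a proton-pumping subunit of complex I, the log2 change was 1.09 ± 0.09. The light-strand gene ND6 rose by 0.89 ± 0.09, and the membrane subunit ND3 by 0.77 ± 0.15. ND5, COX2, COX1 and ND4 rose by 0.73, 0.71, 0.70 and 0.66 on the log2 scale, and ATP6, ND4L and ND1 by 0.43, 0.37 and 0.31. ATP8 changed by 0.25 ± 0.13, which did not pass (adjusted p = 0.0908). The members thus spread over a wide range, with COX3, CYTB and ND2 at one end and ND1 and ATP8 at the other. After correcting each library for transcript length and GC content, the mitochondrial median was 0.47, and 11 of 13 rose.

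The mitochondrial rises came late. At day 9 against day 6, where 2.63% of all genes rose and 2.51% fell, no mitochondrial member rose and 4 fell: COX3 by 0.37, CYTB by 0.36, ND6 by 0.34 and ND5 by 0.33 on the log2 scale. This count was 0 without replicate 2 of day 6 and 2 without replicate 1 of day 9. At day 12, where 21.6% of all genes rose and 34.6% fell, ND5 and ND6 rose by 0.29 and 0.28, ATP8 fell by 0.31 (adjusted p = 0.0456), and the other 10 did not pass. The median of all genes moved from -0.11 in the deposited scale to -0.01 after median-ratio rescaling of the libraries at that day, and 6 mitochondrial members then rose and none fell. Without replicate 2 of day 6, 5 members rose and none fell, and without replicate 1 of day 12 a single member rose. By day 15 (26.2% of all genes rose, 32.2% fell) 11 of 13 rose, with a median of 0.47, led again by COX3 at 0.80 ± 0.10 and CYTB at 0.73 ± 0.08, and ND3 and ATP8 did not pass.

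**Figure D2:**
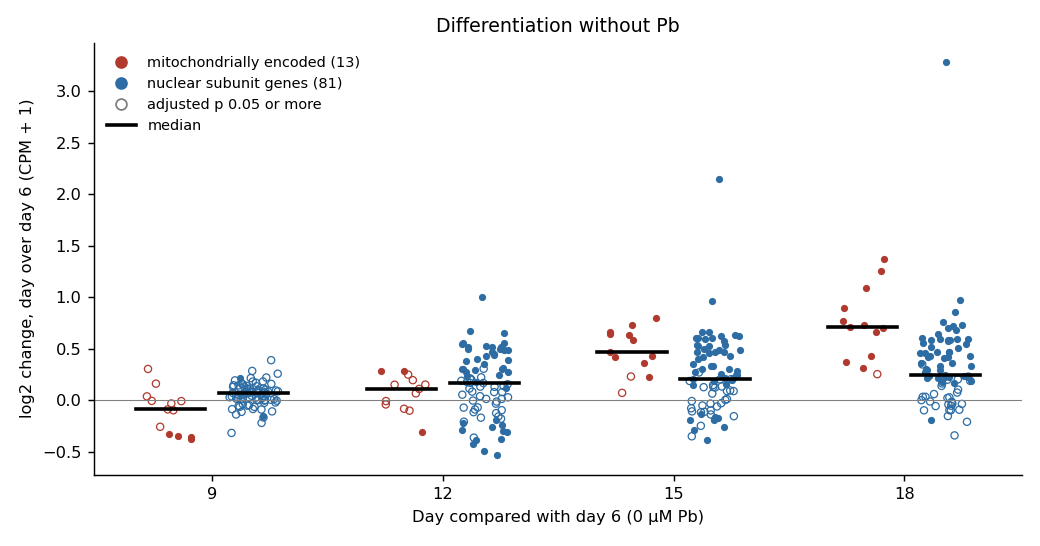
log2 change of each respiratory chain member at days 9, 12, 15 and 18 against day 6 without Pb, for the 13 mitochondrially encoded members (red) and the 81 nuclear subunit genes (blue). Filled points passed an adjusted p of 0.05 in limma, open ones did not, and bars are medians. The mitochondrial medians run -0.09, 0.11, 0.47 and 0.71 over the 4 days and the nuclear ones 0.07, 0.17, 0.20 and 0.24, and the nuclear point far above the rest at days 15 and 18 is COX6B2.

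Many nuclear subunit genes had risen by day 12, and their median changes were smaller than the mitochondrial ones at days 15 and 18. Of 81, those that rose against day 6 numbered 1 at day 9, 33 at day 12, 43 at day 15 and 50 at day 18, and those that fell numbered 1, 12, 9 and 1. Among all genes kept, 2.63, 21.6, 26.2 and 32.1% rose and 2.51, 34.6, 32.2 and 34.7% fell at these days. After median-ratio rescaling 42 rose and 6 fell at day 12, and 48 rose and 2 fell at day 15, and without replicate 3 of day 15, 4 fell at that day, and without its replicate 2, 5 fell. At day 18 complex IV had the largest median of the nuclear groups, 0.47, with 11 of 14 members higher. The medians for complexes I, III and V were 0.26, 0.22 and 0.25, with 19 of 36, 6 of 9 and 12 of 18 higher. Complex II, the one complex without a mitochondrial subunit, was split: the membrane anchor SDHC rose by 0.36 ± 0.05 and the iron-sulfur subunit SDHB by 0.18 ± 0.07, whereas the other anchor, SDHD, fell by 0.19 ± 0.08. The single fall at day 18 was not called after rescaling, with edgeR or without replicate 3 of day 18, replicate 2 of day 6 or replicate 3 of day 6. With replicate 1 of day 18 left out 3 members fell, and 2 without replicate 1 of day 6. With the correction for length and GC content the nuclear medians at days 9, 12, 15 and 18 were 0.01, 0.12, 0.07 and 0.12, with 34 higher and 10 lower at both day 15 and day 18, and the mitochondrial median at day 9 was -0.16.

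COX6B2, an isoform of COX6B described in testis, had the largest change of the 81. It had 12.8, 13.4 and 11.03 CPM at day 18 without Pb, against 0.182, 0.424 and 0.547 CPM at day 6, a log2 change of 3.28 ± 0.16 (adjusted p = 4.22e-23). COX6B2 lay under 1 CPM in these day 6 libraries and was kept through others, so its rank and p-value are not independent of the filter. Its general counterpart COX6B1 rose by 0.52 ± 0.11 and remained the more abundant form. Means over the 60 libraries were 131 CPM for COX6B1 and 3.42 CPM for COX6B2, or 196 and 1.64 CPM per kilobase of the longest transcript. ATP5F1E, the epsilon subunit of the ATP synthase stalk, had 273, 215 and 266 CPM at day 18 and 126, 122 and 132 CPM at day 6, a change of 0.97 ± 0.11. It was at 1.01 ± 0.11 at day 12 already. ATP5PD, the d subunit of the peripheral stalk, rose by 0.86 ± 0.09, UQCRQ of complex III by 0.68 ± 0.10, and NDUFB2, an accessory subunit of complex I, by 0.64 ± 0.10. The alpha subunit of the ATP synthase, ATP5F1A, instead fell by 0.49 ± 0.05 at day 12 and by 0.29 ± 0.05 at day 15, with 469, 444 and 462 CPM at day 12 against 662, 627 and 648 CPM at day 6. UQCRB, a complex III accessory subunit, fell by 0.53 ± 0.10 at day 12.

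Among paired isoforms the forms did not always move alike over differentiation. Of the 3 genes for the ring-forming c subunit of ATP synthase, ATP5MC3 rose by 0.58 ± 0.08 and ATP5MC1 by 0.46 ± 0.10 at day 18, whereas ATP5MC2 changed by -0.03 ± 0.08 (adjusted p = 0.728). COX7A2 rose by 0.73 ± 0.11, and the related COX7A2L, which helps to join complexes III and IV, by 0.24 ± 0.06. NDUFA4, now counted as a complex IV subunit, rose by 0.33 ± 0.09, while NDUFA4L2, its low-oxygen-responsive relative, was near 2 CPM and changed by 0.03 ± 0.21. COX6A1 rose by 0.59 ± 0.10, COX4I1 changed by 0.03 ± 0.07, and their tissue isoforms COX6A2 and COX4I2 were not kept. The near-identical pair UQCRH and UQCRHL changed by -0.10 ± 0.10 and -0.02 ± 0.13, and since reads between such copies may be split, UQCRHL is uncertain. The inhibitor of reverse ATP synthase activity, ATP5IF1, rose by 0.43 ± 0.10.

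For 68 of the 81 nuclear subunit genes RefSeq (GRCh38.p14) gave a promoter window of 300 bases. The NRF1 letters, GCGC and TGCGC with any 1 base between them (either strand), occurred in 23.5% of them and in 6.28% of all 27305 windows. The ETS-type letters CCGGAAG, bound by GABPA, occurred in 29.4% and 10.7%, and the YY1 letters AAGATGGC in 16.2% and 3.03%. Each window was counted once however many matches it held, and NRF1 matches on the 2 strands can be the same place. The 27305 windows include genes that were not kept here, and no set matched for expression or GC content was compared. A match is a run of letters, not a measured binding site. The 150 bases upstream of the annotated start are shown for the complex III subunit UQCR11 (chr19:1605463-1605612, minus strand) and SDHD (chr11:112086723-112086872, plus strand), which hold matches of both NRF1 and GABPA letters, and for ATP5PD (chr17:75046970-75047119, minus strand) and COX6B2 (chr19:55354720-55354869, minus strand), which hold fewer or none. These 4 were chosen after their values were seen, to show stretches with both, 1 and no kind of match, and whether matches go with the size of change was not tested. Matches are in capitals.
UQCR11: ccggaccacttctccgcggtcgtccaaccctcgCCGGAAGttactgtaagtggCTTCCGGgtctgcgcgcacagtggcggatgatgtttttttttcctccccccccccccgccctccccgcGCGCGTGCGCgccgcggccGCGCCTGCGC
SDHD: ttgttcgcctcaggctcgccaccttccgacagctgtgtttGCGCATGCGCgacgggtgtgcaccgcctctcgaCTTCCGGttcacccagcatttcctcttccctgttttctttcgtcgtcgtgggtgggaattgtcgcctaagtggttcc
ATP5PD: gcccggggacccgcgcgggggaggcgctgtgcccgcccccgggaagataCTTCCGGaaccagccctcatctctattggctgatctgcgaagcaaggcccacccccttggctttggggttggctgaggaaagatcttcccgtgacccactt
COX6B2: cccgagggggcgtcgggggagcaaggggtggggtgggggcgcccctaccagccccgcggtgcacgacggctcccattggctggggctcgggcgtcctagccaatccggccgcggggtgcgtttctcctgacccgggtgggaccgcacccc
In these 150 bases UQCR11 held 2 NRF1 and 2 GABPA matches, SDHD 1 of each and ATP5PD 1 GABPA match. The COX6B2 stretch held none of the 3 letter strings. The rest of each 300-base window is not described for these genes.

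At 10 µM Pb the mitochondrial messages rose while nearly all nuclear ones did not pass. Averaged over the 5 days, 12 of 13 mitochondrial members rose at 10 µM relative to 0 µM and none fell, against 6.93% of all genes that rose and 8.13% that fell. The median mitochondrial log2 change was 0.37, and the median of all genes was 0.00. Of the 81 nuclear subunit genes 1 rose and 2 fell, with a median of 0.00. COX2 had the largest mean change, 0.45 ± 0.04 (adjusted p = 8.14e-12), closely followed by ND4 at 0.44 ± 0.04, ND4L at 0.44 ± 0.05 and ND1 at 0.41 ± 0.04. ND2, ATP6 and ATP8 rose by 0.38, 0.37 and 0.37, ND5 by 0.36, COX1 by 0.33, ND6 by 0.30 and CYTB by 0.28 on the log2 scale. COX3, which had moved most with differentiation, rose by 0.17 ± 0.05 (adjusted p = 0.00643), and ND3 changed by 0.13 ± 0.07 and did not pass (adjusted p = 0.235). At each of the 5 days, 12 of the 13 were above their 0 µM mean, ND3 being below it at day 15 alone. Of all genes kept, 5.08% were above 0 at all 5 days.

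**Figure D3:**
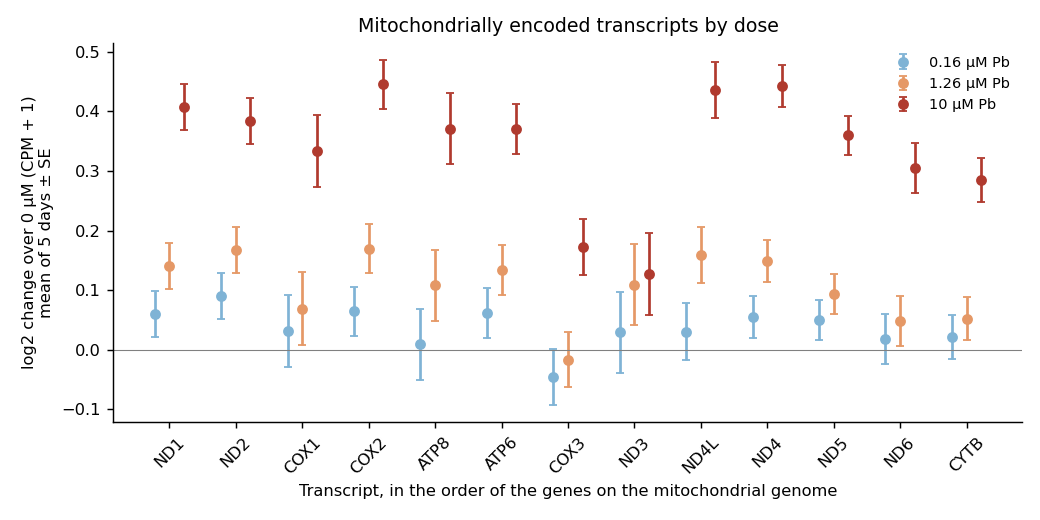
log2 change over 0 µM of each mitochondrially encoded gene at 0.16, 1.26 and 10 µM Pb, averaged over the 5 days with the model's SE, in the order of the genes on the mitochondrial genome. At 10 µM all points lie above 0, with COX3 and ND3 lowest at 0.17 and 0.13 and COX2 highest at 0.45.

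Mitochondrial changes were smaller at the lower doses. At 1.26 µM, averaged over the 5 days, where 1.67% of all genes rose and 2.17% fell, 5 of 13 mitochondrial members rose and none fell: COX2 and ND2 by 0.17, ND4L by 0.16, ND4 by 0.15 and ND1 by 0.14. The median of the 13 was 0.11. The count was 3 when any of 6 libraries was left out, namely replicate 1 of day 6, replicate 2 of day 9 or replicate 3 of day 12 without Pb, and replicate 1 of day 12 or replicate 1 or 2 of day 15 with 1.26 µM. At 0.16 µM, also averaged over the days, where 0.059% of all genes rose and 0.0655% fell, none of the 94 passed in limma or edgeR. In that mean 1 of 13 and 1 of 81 were higher and none lower at an unadjusted p under 0.05, with a mitochondrial median of 0.03 and a nuclear one of -0.02. Averaged over the days, no nuclear subunit gene passed at 1.26 µM in limma or edgeR, 9 being lower and 0 higher at an unadjusted p under 0.05, with a median of -0.04. Over the 4 doses, the mean slope per dose step passed for 12 of 13 mitochondrial members, all upward, with a median of 0.12 per step, and ND4 had 0.14 ± 0.01. In this trend 7.26% of all genes rose and 8.39% fell, and of the nuclear subunit genes 2 rose (NDUFS1 and NDUFA4) and 2 fell.

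The mitochondrial difference at 10 µM was larger from day 12 on than at days 6 and 9. The mitochondrial share of reads at 10 µM averaged 1.29 ± 0.0696, 1.30 ± 0.0871, 2.02 ± 0.155, 2.22 ± 0.264 and 2.55 ± 0.236% at days 6, 9, 12, 15 and 18 (SD, n = 3 each), beside the values without Pb given above. At day 12 the libraries held 2.16, 1.86 and 2.03% with 10 µM and 1.31, 1.26 and 1.204% without Pb, a ratio of means of 1.60. Libraries of 10 µM lay above all those without Pb at days 9, 12, 15 and 18 and overlapped them at day 6. The nuclear share at day 12 was 0.932 ± 0.061% with 10 µM and 0.869 ± 0.032% without Pb, and the ranges overlapped.

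Within single days the number of mitochondrial members that rose at 10 µM was 0 at day 6, 2 at day 9, 12 at day 12, 9 at day 15 and 9 at day 18, and none fell on any day (limma). At day 6, 3 were higher at an unadjusted p under 0.05, and edgeR called none. Over all genes, 0.295, 0.446, 3.03, 2.5 and 12.1% rose and 0.36, 0.963, 2.34, 3.18 and 16.9% fell on those days. The mitochondrial medians were 0.14, 0.25, 0.64, 0.42 and 0.35, and the nuclear medians 0.12, 0.02, 0.13, -0.15 and -0.14. At day 6 the mitochondrial median was 0.09 and the nuclear one 0.06 without the 2 libraries low in long transcripts, and 0.04 and 0.08 with the length and GC correction, which also gave a nuclear median of 0.08 at day 12. The nuclear median at day 9 was 0.01 after rescaling. ND4 had 3690, 3140 and 3516 CPM at day 12 with 10 µM, against 2156, 2066 and 2117 CPM without Pb. Its libraries did not overlap at day 12, 15 or 18, and its log2 change was 0.70 ± 0.08 at day 12, 0.53 ± 0.08 at day 15 and 0.54 ± 0.08 at day 18. COX2 peaked at 0.78 ± 0.09 at day 12, with 3806, 3402 and 3822 CPM at 10 µM and 2249, 2155 and 2017 CPM without Pb. COX3 rose at day 12 by 0.45 ± 0.10, with 423, 357 and 401 CPM at 10 µM and 292, 287 and 280 CPM without Pb. At day 18 it had 907, 908 and 785 CPM at 10 µM and 895, 836 and 650 CPM without Pb, which overlapped, and its change of 0.14 ± 0.10 did not pass. Counted without a model, members whose 3 libraries at 10 µM all lay above the 3 without Pb numbered 1, 6, 12, 11 and 9 of 13 at the 5 days, and 12, 2, 23, 0 and 1 of the 81 nuclear subunit genes, where 7.12, 9.19, 15.4, 13.7 and 11.9% of all genes did. No mitochondrial member lay wholly below, and 1, 0, 1, 26 and 20 nuclear ones did, where 6.03, 5.92, 11.5, 10.1 and 22.1% of all genes did. The counts at days 9 and 15 leaned on single libraries: no member passed at day 9 without replicate 1 or 2 of 0 µM or replicate 2 or 3 of 10 µM, and 5 passed at day 15 without replicate 1 of 10 µM.

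**Figure D4:**
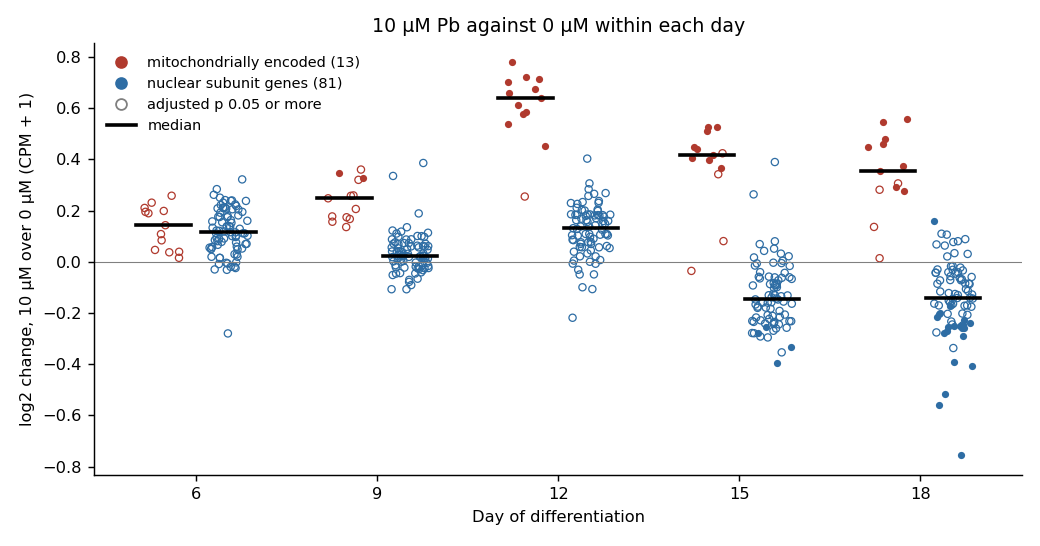
log2 change at 10 µM Pb against 0 µM at each day, for the 13 mitochondrially encoded members (red) and the 81 nuclear subunit genes (blue). Filled points passed an adjusted p of 0.05 in limma, open ones did not, and bars are medians. Mitochondrial medians peak at 0.64 at day 12, and nuclear medians change sign after it, to -0.15 and -0.14 at days 15 and 18.

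The gap between the 2 genomes can be read within each library, as the median log2 level of the 13 minus that of the 81 nuclear genes, which depends little on the library total. At day 6 it was 3.31, 3.24 and 3.34 with 10 µM and 3.03, 3.35 and 3.16 without Pb, which overlapped. At day 12 it was 3.91, 3.69 and 3.77 with 10 µM and 3.20, 3.34 and 3.23 without Pb. At day 15 it was 4.23, 4.07 and 4.18 with 10 µM and 3.56, 3.70 and 3.68 without Pb, and at day 18 it was 4.39, 4.58 and 4.40 with 10 µM and 3.95, 3.87 and 3.98 without Pb. From day 12 on the 3 libraries with 10 µM stood above the 3 without Pb, by 0.54, 0.51 and 0.53 on average. At days 6 and 9 the mean differences at 10 µM were 0.12 and 0.03, and the groups overlapped. The lower doses also lay above all libraries without Pb late on. At day 15 the gap was 3.76 to 3.83 at 0.16 µM and 3.79 to 3.92 at 1.26 µM. At day 18 it was 4.09 to 4.24 and 4.13 to 4.22. There the nuclear median log2 level averaged 6.60 without Pb, 6.44 at 0.16 µM and 6.46 at 1.26 µM, both without overlap with 0 µM. The mitochondrial one averaged 10.53, 10.58 and 10.64, and both lower doses overlapped 0 µM. The highest nuclear value without Pb, 6.73, was that of replicate 1, a library low in long transcripts. At day 12 the gap was 3.44 to 3.53 at 1.26 µM, above the libraries without Pb, and 3.16 to 3.32 at 0.16 µM, overlapping them.

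Few nuclear subunit genes passed with Pb over the days. NDUFS1, the largest core subunit of complex I, rose by 0.09 ± 0.03 (adjusted p = 0.0222), with 98.3, 97.9 and 105 CPM at 10 µM and 83.4, 96.2 and 90.0 CPM without Pb at day 18. The c-subunit gene ATP5MC2 fell by 0.14 ± 0.04 (adjusted p = 0.00446), and ATP5F1B by 0.07 on the log2 scale, while ATP5MC1 and ATP5MC3 each changed by 0.07 and did not pass. The number of nuclear genes that rose ranged from 0 to 4 when any 1 library was left out, with 0 without replicate 2 of day 12 without Pb. It was 4 without replicate 3 of day 6 or replicate 1 of day 18 without Pb, and the number that fell was 4 without replicate 3 of day 6 with 10 µM.

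The lower nuclear values came late. No nuclear subunit gene passed at days 6, 9 or 12 in limma or edgeR, and at an unadjusted p under 0.05 16, 1 and 22 were higher and 0, 0 and 1 lower. At day 12, 73 of 81 lay above 0. At day 15, where 3.18% of all genes fell, 4 of 81 fell: ATP5MC2 by 0.40, ATP5IF1 by 0.33, COX5A by 0.28 and UQCR11 by 0.25. This count lay near the share over all genes. COX5A, a nuclear subunit on the matrix side of complex IV, had 133, 122 and 139 CPM at 10 µM and 152, 157 and 170 CPM without Pb, without overlap. UQCR11 had 31.7, 30.5 and 35.9 CPM at 10 µM and 37.7, 39.5 and 40.2 CPM without Pb. At that day 1 gene fell without replicate 2 of 10 µM or replicate 3 of 0 µM.

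At day 18 with 10 µM 20 nuclear subunit genes fell and NDUFS1 rose, against 16.9% of all genes that fell and 12.1% that rose. COX7A2L had 185, 197 and 192 CPM at 10 µM, against 277, 255 and 226 CPM without Pb, a log2 change of -0.39 ± 0.06 (adjusted p = 6.08e-07) with no overlap. The others included the b subunit of the ATP synthase stalk ATP5PB (-0.26 ± 0.07), the core protein UQCRC2 (-0.22 ± 0.06), SDHD (-0.20 ± 0.08), COX4I1 (-0.25 ± 0.07) and COX6B2 (-0.51 ± 0.16). COX6B2 had 8.97, 7.77 and 8.36 CPM at 10 µM and 12.8, 13.4 and 11.03 CPM without Pb. NDUFA7 fell by 0.76 ± 0.17 at 0.404, 0.448 and 0.095 CPM with 10 µM and 1.53, 0.919 and 1.21 CPM without Pb, close to the level of 3 reads. The count depended on the libraries and the scale: 7 genes fell without replicate 1 of day 18 without Pb, 1 of the 2 libraries low in long transcripts, and 13 without replicate 3 of 10 µM. After median-ratio rescaling 6 fell and 1 rose, and after the length and GC correction 9 fell and 3 rose. The nuclear median then was -0.09 with rescaling and -0.03 with the correction, and it was -0.06 without the 2 libraries. The rise of NDUFS1 was not called without those 2 libraries, without the filter on low values or when only the groups compared were fitted. The lower doses, set against the same 3 libraries without Pb, had like nuclear values at day 18. The nuclear share of reads was 0.889 to 1.04% at 0 µM, 0.853 to 0.873% at 0.16 µM, 0.857 to 0.885% at 1.26 µM and 0.843 to 0.895% at 10 µM, and the nuclear median change was -0.14 at each of the 3 doses. At an unadjusted p under 0.05 25, 17 and 25 of 81 were lower at the 3 doses, and 1, 6 and 20 passed as lower. Over all genes 1.15 and 3.28% fell and 5.19 and 9.1% rose at 0.16 and 1.26 µM on that day. ATP5PB changed by -0.23 ± 0.07, -0.20 ± 0.07 and -0.26 ± 0.07 at the 3 doses and passed at each. The mitochondrial medians at day 18 were -0.01 at 0.16 µM, 0.06 at 1.26 µM and 0.35 at 10 µM. At day 15, 1 nuclear subunit gene fell at 1.26 µM, ATP5MC2 by 0.30 ± 0.08, where 0.93% of all genes fell.

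**Figure D5:**
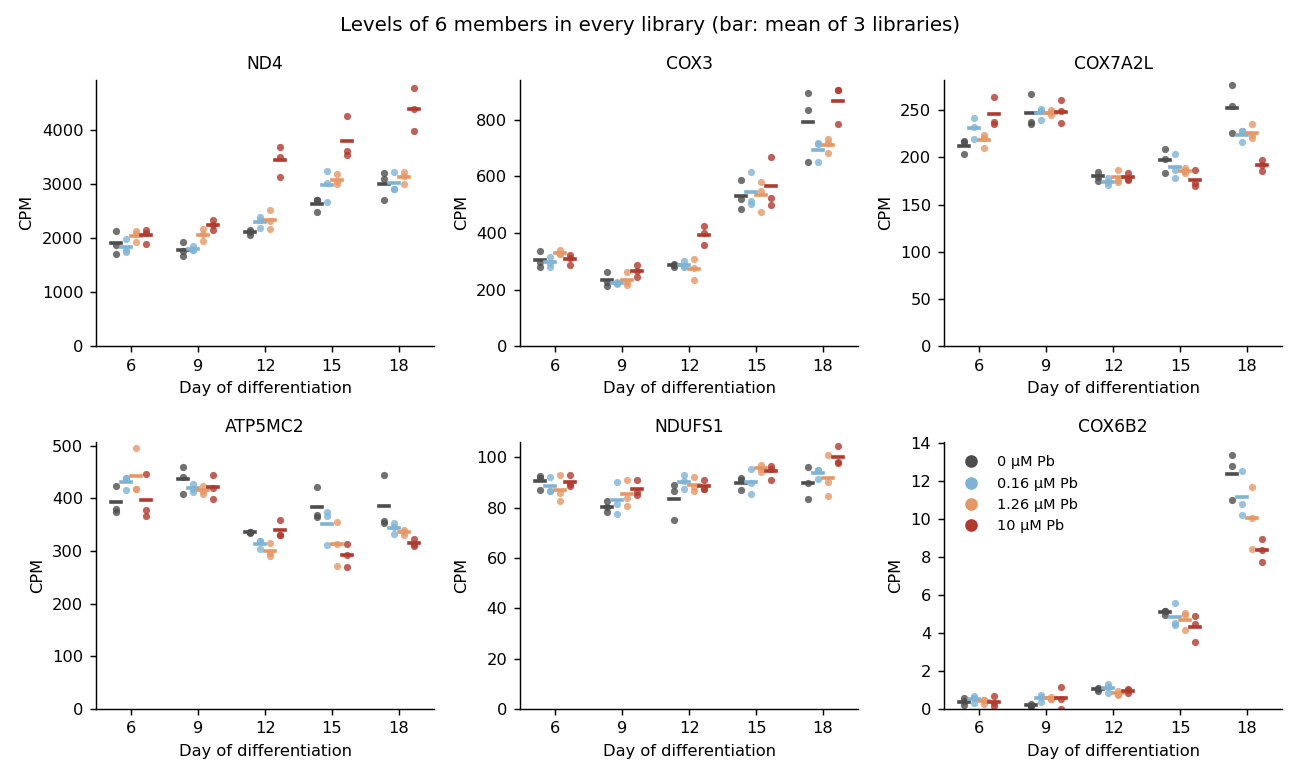
CPM of 6 members in every library, by day and Pb dose, with bars for the means of 3. ND4 and COX3 are mitochondrially encoded, and COX7A2L, ATP5MC2, NDUFS1 and COX6B2 nuclear. ND4 at 10 µM lies above all libraries without Pb from day 12, and COX7A2L at 10 µM lies below them at day 18.

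Whether the 10 µM difference itself varied between days was tested with an F test over the 5 days. It passed for 8 of 13 mitochondrial members and 19 of 81 nuclear subunit genes, and for 21.7% of all genes. The nuclear count lay near that share. The count of mitochondrial members was 5 without replicate 2 of day 6 without Pb, replicate 3 of day 12 without Pb or replicate 1 of day 12 with 10 µM. ND5 had the smallest p of the mitochondrial members (F = 9.85, adjusted p = 0.000219), with differences of 0.08, 0.14, 0.58, 0.52 and 0.48 over the 5 days. COX7A2L had the smallest of all members (adjusted p = 3.63e-06), with differences of 0.21 at day 6, 0.01 at day 9, -0.01 at day 12, -0.16 at day 15 and -0.39 at day 18. ND3, ATP8, COX1, COX3 and ND4L did not pass.

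The nuclear genes that read the mitochondrial genome or mature its RNA are given with the shares over all genes, 6.93% higher and 8.13% lower at 10 µM over the days, and counts this small in short lists lie near those shares. Of 16 genes for mitochondrial transcription and replication, none rose and 1 fell at 10 µM over the days, the exonuclease MGME1 by 0.14 ± 0.03, with a median of -0.02. Of 22 genes for mitochondrial RNA processing and stability 1 rose, the nuclease subunit PRORP by 0.23 ± 0.06. Of 12 regulators of mitochondrial biogenesis 1 rose, the nuclear receptor ESRRG by 0.24 ± 0.04, which at day 18 without Pb against day 6 had fallen by 1.67 ± 0.08. At day 18 without Pb against day 6, where 32.1% of all genes rose and 34.7% fell, transcription and replication genes had 2 higher and 8 lower, and regulators 1 higher and 7 lower, among them PPRC1 by 0.91 and YY1 by 0.83. Of the assembly factors of complex I, 2 of 18 rose at 10 µM and 1 fell, led by TMEM126B at 0.21 ± 0.04, and of those of complex IV 1 of 25 rose, HIGD1A at 0.09 ± 0.03. The coenzyme Q gene COQ10B rose by 0.18 ± 0.03 at 10 µM, the import channel gene TIMM17A by 0.13 ± 0.03 and the mitochondrial chaperone HSPA9 by 0.09 ± 0.02. Citrate synthase (CS) fell by 0.08 ± 0.02, and SUCLA2 rose by 0.08 ± 0.03, of 16 citric acid cycle genes.

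Marker levels of other cell states moved with 10 µM as well. Over the days 6.93% of all genes rose and 8.13% fell at 10 µM, and of 8 mesenchymal markers tested 7 fell and none rose, COL3A1 by 1.88 and VIM by 0.64 on the log2 scale. The 10 markers listed summed to 113 to 121 CPM with 10 µM and 225 to 235 CPM without Pb at day 12, and to 173 to 182 CPM with 10 µM and 222 to 244 CPM without Pb at day 18. Of 10 neuronal markers 5 rose and 2 fell, with sums of 4510 to 4695 CPM with 10 µM and 4316 to 4540 CPM without Pb at day 12, and 6707 to 6999 CPM with 10 µM and 7105 to 7824 CPM without Pb at day 18. Of 10 noradrenergic markers none rose and 5 fell. Of 4 epithelial and blood markers tested none passed, and the leukocyte gene PTPRC was at 0 CPM in all 6 libraries of day 12 with 10 µM or without Pb. The 4 RNAs retained in the nucleus, MALAT1 among them, summed to 840, 913 and 901 CPM with 10 µM and 646, 623 and 735 CPM without Pb at day 12, but to 472, 371 and 433 CPM with 10 µM and 863, 791 and 731 CPM without Pb at day 18. The part of these markers and RNAs in the mitochondrial result was not tested. As for the scale, the mitochondrial median at 10 µM over the days was 0.37 with rescaling, 0.38 without the 2 libraries low in long transcripts and 0.37 with the length and GC correction.

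Low nuclear members are uncertain. Of the 81 genes 8 had a median under 10 CPM, among them the core subunits SDHA at 7.48 and NDUFV2 at 0.997 CPM and NDUFB8, NDUFA13 and NDUFA7, and 33 had a span that overlaps another annotated gene. Of the 4 non-subunit names, NDUFV2-AS1 changed by -0.44 ± 0.15 at day 18 against day 6 without Pb (adjusted p = 0.0103), opposite NDUFV2, whose reads could not be told from it, and none passed at 10 µM over the days.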

How the data were processed

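RNA from 60 dishes was made into PlexWell libraries, in which tagmentation adds a well barcode before pooling. The authors deposited CPM per gene, that is read counts scaled to the total of assigned reads of each library. FastQC, MultiQC, STAR, featureCounts and the GRCh38 build are named in the submitters' processing notes, while the annotation and strand setting are not given in the sources used here. All deposited CPM values came out as whole reads (100%, within 0.01 read), which gave library totals of 16594259 to 50539599. The 3-read level, 0.0594 to 0.181 CPM, covers counting error only.

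Genes that reached 1 CPM in 3 or more libraries were fitted as log2(CPM + 1) with limma 3.58.1 in R 4.3.3, with a mean for each of the 20 groups (40 residual degrees of freedom). P-values were adjusted by Benjamini-Hochberg over all genes kept, with a threshold of 0.05, and the fit was tested on simulated data. Alternatives were a pseudocount of 0.25, no filter, median-ratio rescaling, CPM over nuclear genes alone, a replicate block, a length and GC correction, other sets of libraries, a linear dose and edgeR 4.0.16 on the recovered reads. The members and lists were chosen with earlier results of these data known. All mitochondrial members are named. Nuclear members were named mainly by the smallest p past the threshold in each complex and direction, and list members by the smallest p, with paired isoforms. Promoters and gene positions come from RefSeq (GRCh38.p14), and transcript lengths (the longest transcript of each gene) and mitochondrial overlaps from GENCODE transcripts of GRCh38. NDUFA4 and NDUFA4L2 are called COXFA4 and COXFA4L2 in RefSeq.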

Additional observations from a re-analysis of the deposited data

Results flagged for a closer look

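For 8 mitochondrial members and 19 nuclear subunit genes the difference between 10 µM Pb and 0 µM itself differed between days. The test was a limma F test over 5 days, adjusted over all genes kept, and 21.7% of all genes passed. The nuclear count, 19 of 81, lay near that share. Among mitochondrial members the adjusted p was 0.000219 for ND5, 0.000709 for ND4, 0.0031 for ND1, 0.00409 for CYTB, 0.0106 for COX2, 0.0233 for ATP6, 0.0353 for ND6 and 0.0445 for ND2. All 8 had their largest difference at day 12. Among the nuclear members described, the adjusted p was 3.63e-06 for COX7A2L, 0.00415 for COX5A, 0.00505 for COX4I1, 0.00824 for NDUFA7, 0.00882 for ATP5MC2, 0.00902 for UQCR11, 0.0232 for COX6A1, 0.0251 for ATP5PB, 0.0369 for UQCRH and 0.0436 for COX6B2. COX7A2L, COX5A, COX4I1, UQCR11, ATP5MC2, COX6A1, ATP5PB and UQCRH lay above 0 at day 6 and below 0 at days 15 and 18. So did the median of all 81 nuclear subunit genes, at 0.12, -0.15 and -0.14. NDUFA7 and COX6B2 lay below 0 at day 6. The other 9 nuclear genes that passed, ATP5MG, ATP5PF, ATP5MJ, NDUFB10, COX5B, COX8A, NDUFS3, NDUFS7 and NDUFA13, had an adjusted p from 0.0052 to 0.0459.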

How the results depend on the processing

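The 12 mitochondrial members higher at 10 µM over the days stayed 12 under every alternative run and with any 1 library left out. The summed mitochondrial level, as log2 of 10 µM minus 0 µM at each day, was set against the median log2 level over members. It moved by less than the spread between replicates. The share of reads is the same sum on another scale, so it could not differ. The other alternatives were not run on this sum. All alternatives were planned, and in each case below the cause was not tested.

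Without the filter on low values, 0 nuclear members fell at day 9 and 0 mitochondrial ones at day 12 against day 6, and 3 mitochondrial members rose at 1.26 µM. For 10 µM, 1 mitochondrial member rose at day 9, no nuclear member rose at day 18, 1 nuclear member rose in the dose trend, and 5 mitochondrial members varied by day. After median-ratio rescaling, nuclear members that fell against day 6 numbered 0, 6, 2 and 0 at days 9, 12, 15 and 18, and 6 mitochondrial members rose and 0 fell at day 12. For Pb, 3 mitochondrial members rose at 1.26 µM and 1 at day 9 of 10 µM, 8 and 6 nuclear members fell at days 15 and 18 of 10 µM, and 1 nuclear member rose in the trend. With edgeR, nuclear members that fell against day 6 numbered 0, 7, 3 and 0, and 6 mitochondrial members rose and 0 fell at day 12. For Pb, edgeR gave 3 mitochondrial members higher at 1.26 µM, 1 at day 9 of 10 µM, 12 nuclear members lower at day 18, 1 nuclear member higher in the trend and 5 mitochondrial members varying by day.

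With the length and GC correction, nuclear members that fell numbered 2 at day 9 and 10 at day 18 against day 6, and 4 mitochondrial members rose and 0 fell at day 12. For 10 µM it gave 2 nuclear members higher over the days, 1 lower at day 12, 3 higher and 9 lower at day 18, and 6 that varied by day. KCNQ1OT1, a nuclear-retained RNA, turned round: its log2 change at day 18 against day 6 was -0.35 with that correction and 0.60 without it, and at day 18 of 10 µM 0.0346 with it and -0.58 without it. Without the 2 libraries low in long transcripts, 3 nuclear members fell at day 18 against day 6, and for 10 µM 3 rose over the days, 10 fell at day 15, 0 rose and 8 fell at day 18, and 11 varied by day. When only the groups compared were fitted, 0 nuclear members rose and 0 fell at day 9, and 0 mitochondrial members fell at day 12. For Pb that fit gave 3 mitochondrial members higher at 1.26 µM and 0 at day 9 of 10 µM, 1 nuclear member lower over the days and 1 at day 15, 0 nuclear members higher and 3 lower at day 18, and 5 mitochondrial and 10 nuclear members that varied by day. Without day 18, 1 nuclear member fell at 10 µM over the days, 1 rose and 1 fell in the trend, and 4 varied by day. With CPM over nuclear genes alone, 2 nuclear members rose at 10 µM over the days and 4 in the trend, and a linear dose gave 5 in the trend.

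Replicate numbers did not pair the samples: deviations from group means had a mean correlation of 0.022 over 570 same-numbered pairs, from -0.57 to 0.532. With the replicate block 3 nuclear members rose at 10 µM over the days and 7 fell at day 15, and all other counts were within 1.5 times those without it, such as 12 mitochondrial members at 10 µM.

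With 1 library left out in turn, mitochondrial members that rose numbered 1 to 5, 10 to 11 and 12 to 13 at days 12, 15 and 18 against day 6, and those that fell 0 to 4 at day 9 and 0 to 1 at day 12. Nuclear members that rose numbered 0 to 2, 27 to 37, 32 to 44 and 44 to 54 at days 9, 12, 15 and 18, and those that fell 0 to 1, 10 to 14, 4 to 10 and 0 to 3. At 1.26 µM 3 to 6 mitochondrial members rose and 0 to 1 nuclear members fell. At 10 µM over the days 0 to 4 nuclear members rose and 2 to 4 fell. In the dose trend 0 to 5 nuclear members rose, 5 of them without replicate 1 of day 18 without Pb or replicate 2 of day 6 with 10 µM, and 2 to 4 fell, 4 of them without replicate 3 of day 18 without Pb or replicate 3 of day 6 with 10 µM. Within days at 10 µM, mitochondrial members that rose numbered 0 to 2, 11 to 12, 5 to 10 and 7 to 10 at days 9, 12, 15 and 18. Nuclear members that rose numbered 0 to 2, 0 to 1, 0 to 2 and 0 to 2 at days 6, 9, 12 and 18, and those that fell 1 to 6 at day 15 and 7 to 25 at day 18. Members varying by day numbered 5 to 10 mitochondrial and 13 to 26 nuclear.

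Depth limits only the lowest members, such as NDUFA7 and COX6B2 early on, and not the mitochondrial ones.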

Other observations

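The remaining lists around the respiratory chain moved in mixed directions over differentiation. At day 18 against day 6 without Pb, 6 of 22 genes for mitochondrial RNA processing rose and 8 fell. Of the assembly factors, 7 of 18 for complex I rose and 4 fell, 5 of 12 for complexes II and III rose and 2 fell, 10 of 25 for complex IV rose and 2 fell, and 3 of 4 for complex V rose and 1 fell. Of 15 genes for electron carriers and coenzyme Q synthesis 5 rose and 4 fell, of 16 citric acid cycle genes 6 rose and 5 fell, of 21 import and cristae genes 10 rose and 6 fell, and of 12 genes of the mitochondrial unfolded protein response 2 rose and 6 fell. In the same comparison 32.1% of all genes rose and 34.7% fell. At 10 µM over the days, 1 of 12 complex II and III assembly factors rose, LYRM7 by 0.16, and of 4 complex V assembly factors none passed. The 2 mitochondrial rRNA genes were sought by name and not found among the deposited genes under the names used, so no level is given.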
